A study of Mus musculus with 9 samples.

Results

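The comparison described here sets the brains of vehicle-treated 5xFAD mice against those of wild-type mice, over all genes of an expression array. The vehicle group is 5xFAD mice injected with PBS (3 arrays, called 5xFAD below). The control group is B6SJLF1/J wild-type mice, also injected with PBS (3 arrays). Mice of both groups came from the same supplier, were about 5 months old and had received daily intraperitoneal injections for 10 weeks. Another group of 3 arrays, 5xFAD mice given human amylin, entered the fit for its spread only, so 6 of the 9 arrays of the series are compared. A gene was represented by a probe set that names 1 gene symbol, and by its brightest one over all 9 arrays (highest mean) where it had several. This left 19938 genes from 35556 probe sets. Values are log2 intensities, a difference is 5xFAD minus wild type on that scale, and its error is the standard error (SE) of the fit. A gene was called higher or lower at a Benjamini-Hochberg adjusted p under 0.05 in limma.

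The 5xFAD line carries mutant human transgenes for the amyloid precursor protein and presenilin, driven by the neuronal Thy1 promoter, and deposits amyloid early in life. Microglia, the resident macrophages of the brain, gather around such deposits, digest material in their lysosomes and release cytokines and lipid mediators, while astrocytes become reactive and neurons can lose synapses. The line overproduces its transgenes and is a model of amyloid deposition, not of the whole disease. The labels say that the replicates are biological, without saying whether each array holds 1 animal or a pool. In whole tissue, more cells of a type and more RNA per cell cannot be told apart.

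The series text calls the tissue cortex, while the sample labels say only brain. The 16 measured markers of cortical projection neurons had a mean of 8.84 to 8.97 in wild type and 8.81 to 8.95 in 5xFAD, although 2 of them rose and 4 fell (differences from -1.07 to 0.82). Without wild-type replicate 1, 2 or 3 or 5xFAD replicate 3 the 2 became 0, and the 4 became 1 without wild-type replicate 2 or 3 or 5xFAD replicate 3 and 2 without 5xFAD replicate 1. Among markers of other regions, all 14 striatal markers rose, with a list mean of 7.96 to 8.15 in wild type and 9.32 to 9.56 in 5xFAD. Of the 14 hippocampal markers 11 fell (7.39 to 7.42 against 6.42 to 6.48), as did 11 of 14 thalamic markers (8.26 to 8.55 against 7.53 to 7.81; 7 without wild-type replicate 1). Of 19 microglial markers 18 rose, from a mean of 6.79 to 6.83 to one of 8.08, 8.67 and 8.71. Of 13 olfactory bulb markers 0 were called, but 5xFAD replicate 1 stood at 8.07 beside 6.44 to 6.63 in wild type. Xist lay between 9.85 and 10.31 on all 6 arrays, and the Y-linked genes Kdm5d, Uty and Eif2s3y reached at most 3.32. These lists moved with many of the genes below, and their part in those results was not tested.

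Of the 19938 genes, 1710 were called (8.58%): 729 were higher (3.66%) and 981 lower (4.92%) in 5xFAD. At an unadjusted p under 0.05 there were 4229 genes. The arrays of the 2 groups did not overlap for 5347 genes (26.8%), among them 1709 of the 1710 called. Decreases were more numerous and smaller: the median called increase was 0.45 and the median called decrease -0.36. Changes of at least 1.5-fold were called for 413 genes (2.07%), 258 higher (1.29%) and 155 lower (0.777%). At least 2-fold changes were more often increases, with 103 genes higher and 40 lower, and at least 4-fold changes numbered 14 and 2. Among the 4985 genes with the highest mean level 239 rose and 515 fell, whereas among the 4985 with the lowest 48 rose and 19 fell. Of the 1710 called genes 115 are on a list of cell type or region markers drawn up here, and 1323 are on none of the 60 lists, which hold 1551 of the 19938 genes.

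The number called depended on the arrays. It was 863, 1126 or 996 without wild-type replicate 1, 2 or 3, and 969 without 5xFAD replicate 3. A core of 718 genes (334 higher, 384 lower) was called in the full fit and in each of the 6 fits that left out 1 array. Unless an exception is given here or with the sensitivity to processing, the genes described below were called in the full fit and in the alternative settings, 16 in all, in which they were tested. Wild-type arrays resembled each other closely (r of 0.9981 to 0.9986 across genes), 5xFAD arrays somewhat less (0.9957 to 0.9973), and arrays of different groups least (0.9910 to 0.9941).

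**Figure D1:**
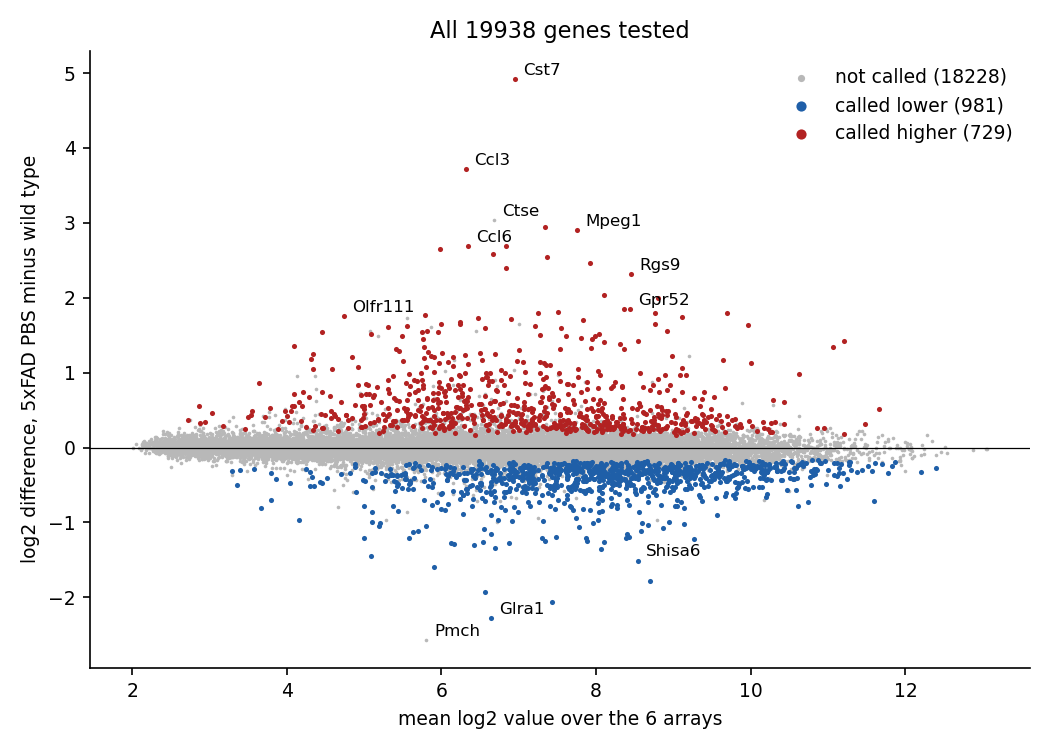
Mean log2 value over the 6 arrays (x axis) against the log2 difference, 5xFAD PBS minus wild type (y axis), for 19938 genes, 1 point a gene, with the 729 genes called higher in red, the 981 called lower in blue and the rest in grey. Increases reach further than decreases (Cst7 at 4.92, Glra1 at -2.28), while Ctse and Pmch are far from 0 but were not called.

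Among genes on no marker list, the largest increases included genes known from phagocytes. Mpeg1, which encodes the pore-forming protein perforin-2 of macrophages, had values of 6.29, 6.24 and 6.40 in wild type and 8.61, 9.63 and 9.39 in 5xFAD, a difference of 2.90 ± 0.23 (adjusted p = 0.000165). The chemokine gene Ccl6 had 5.03, 4.95 and 5.01 against 7.05, 8.04 and 7.97, a difference of 2.69 ± 0.22 (adjusted p = 0.00021). In both genes 5xFAD replicate 1 was the lowest of its group and still above every wild-type array. Cd180, a Toll-like receptor homologue, rose by 2.40 ± 0.22. Plek (pleckstrin), the membrane protein genes Cd84 and Cd53, the annexin gene Anxa3 and the orphan receptor gene Gpr34 rose by 1.81 ± 0.13, 1.78 ± 0.14, 1.71 ± 0.17, 1.72 ± 0.23 and 1.55 ± 0.16.

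Among the other large increases, Gpr52, an orphan receptor gene known for its expression in striatal neurons, had 7.35, 7.46 and 7.72 in wild type and 9.39, 9.37 and 9.32 in 5xFAD (1.85 ± 0.13, adjusted p = 9.59e-05). Rxrg, a retinoid X receptor gene, had 5.56, 5.24 and 6.03 against 7.53, 7.16 and 7.33 (1.73 ± 0.17, adjusted p = 0.000491). In both genes all 5xFAD arrays lay above all wild-type arrays. Sh3rf2 and Serpina9 rose by 1.68 ± 0.14 and 1.62 ± 0.12. Gpx6, a glutathione peroxidase gene, was highest in 5xFAD replicate 3, with 4.14, 4.63 and 4.73 against 5.79, 5.90 and 6.66 (1.62 ± 0.22, adjusted p = 0.00259).

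The largest decrease among called genes was that of Glra1, an inhibitory glycine receptor subunit gene best known from brain stem and spinal cord. Its values were 8.34, 7.47 and 7.54 in wild type and 6.03, 5.05 and 5.41 in 5xFAD, a difference of -2.28 ± 0.35 (adjusted p = 0.00452). Wild-type replicate 1 was the highest array, and the groups stayed apart without it. Shisa6, an auxiliary protein of AMPA receptors, had 9.31, 9.26 and 9.32 against 7.92, 7.62 and 7.82 (-1.51 ± 0.08, adjusted p = 3e-05). The plakophilin gene Pkp2 fell by 1.34 ± 0.14, the neuropeptide Y receptor gene Npy2r by 1.30 ± 0.16, the LIM homeobox gene Lhx9 by 1.28 ± 0.14 and the dexamethasone-induced Ras gene Rasd1 by 1.25 ± 0.12. Tanc1, a scaffold of the postsynaptic density, the peptide gene Grp, Napepld, an enzyme that makes N-acylethanolamines such as anandamide, and Gpr161 fell by 1.21 ± 0.07, 1.20 ± 0.17, 1.19 ± 0.09 and 1.16 ± 0.07. Aldh1a1, a retinaldehyde dehydrogenase gene, fell by 1.25 ± 0.25 (adjusted p = 0.0147), and this call was lost without wild-type replicate 1 or 5xFAD replicate 2 (adjusted p from 0.00771 to 0.0679 over the alternatives).

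**Figure D2:**
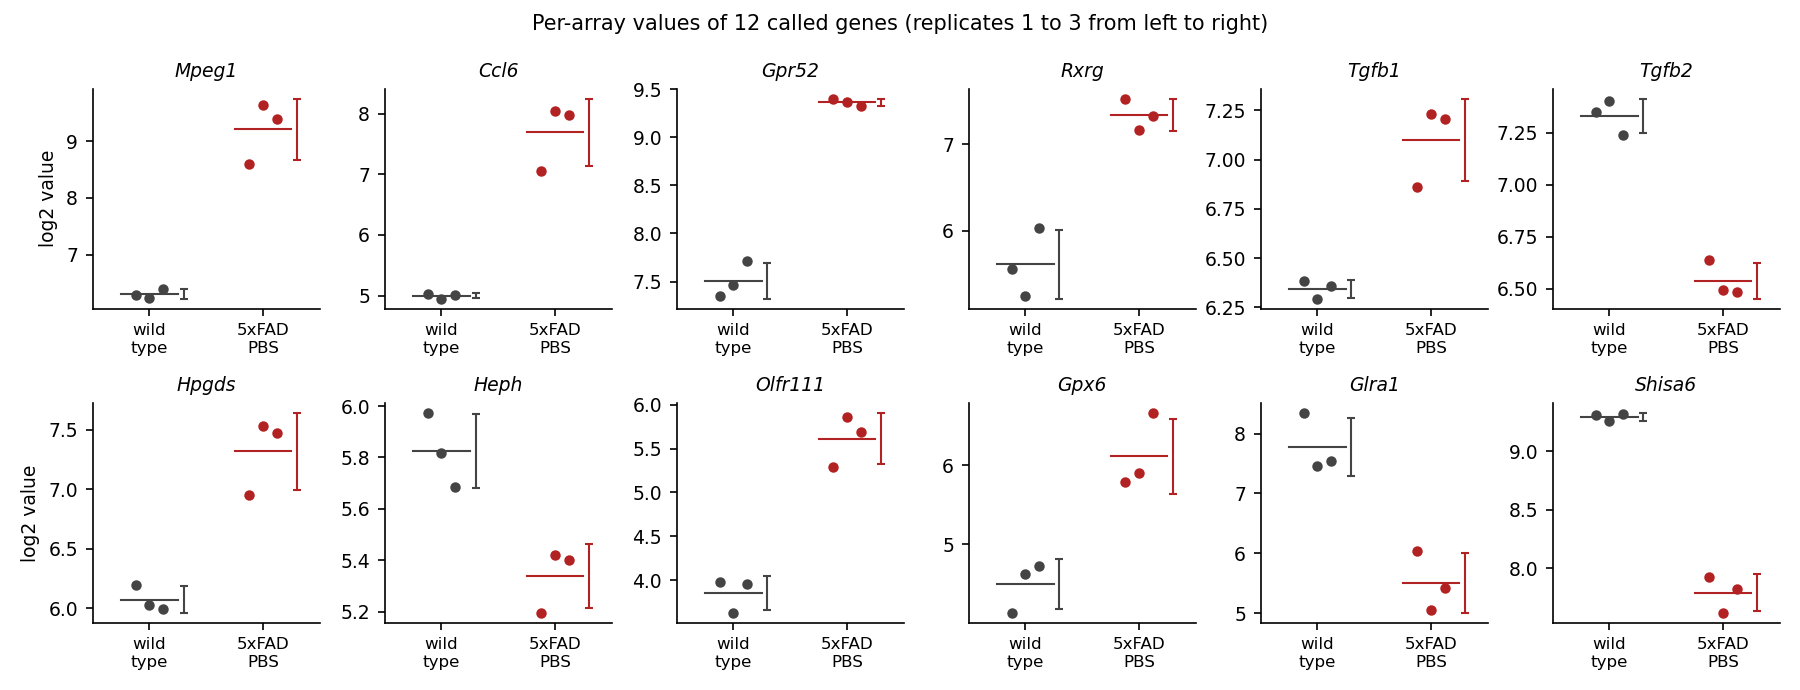
Log2 values (y axis, a scale for each gene) of 12 called genes in the 3 wild-type (grey) and 3 5xFAD PBS arrays (red), with each group's mean (line) and SD (bar). The groups are apart in each of the 12. In Mpeg1, Ccl6, Tgfb1, Hpgds, Olfr111, Gpx6 and Heph, 5xFAD replicate 1, the left red point, is the lowest of its group. In Gpr52, Rxrg, Tgfb2, Glra1 and Shisa6 that array is the highest of its group.

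Calls were unevenly spread over 40 lists of genes sorted by process. The lists of immune tyrosine kinase signalling and of lysosomal proteins had the highest shares of increases, 47.2% and 47.6% beside 3.66% of all genes. The lists of glutamate receptors, glucocorticoid-responsive genes, synaptic vesicle proteins and GABA and glycine receptors had 33.3%, 31.6%, 29.7% and 29.4% of decreases beside 4.92% of all genes. Of 40 histone and chromatin regulators 1 was called, of 41 cell division genes 2 and of 37 proteasome subunits 1. The chromatin call was lost without any single array except 5xFAD replicate 2, and the 2 cell division calls became 1 without wild-type replicate 1 or 2 or 5xFAD replicate 3 and 0 without wild-type replicate 3 or 5xFAD replicate 1 or 2.

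**Figure D3:**
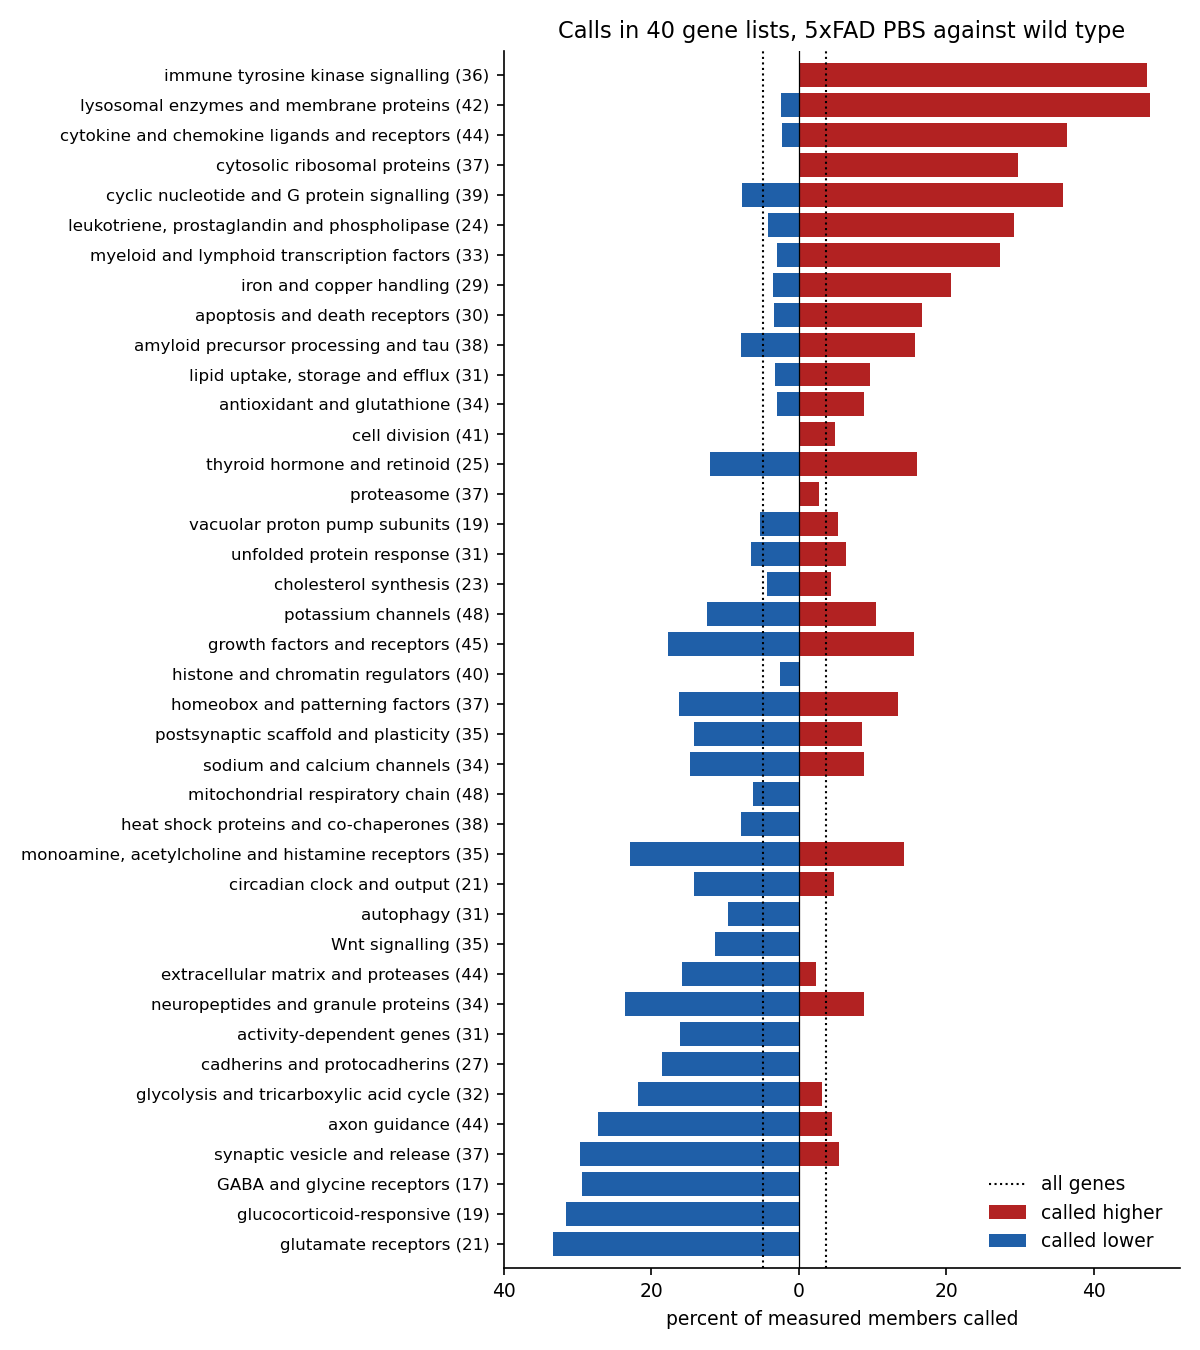
Percent of the measured members of 40 process lists called higher (red, to the right) and lower (blue, to the left) in 5xFAD PBS against wild type, with the number measured in brackets and the shares over all genes as dotted lines (3.66% and 4.92%). Immune, lysosomal and cytokine lists extend to the right, and receptor, vesicle and axon guidance lists to the left. The list of cyclic nucleotide and G protein signalling also extends to the right (35.9% higher, 7.69% lower). Of its 14 increases 5 are striatal markers (Adcy5, Pde1b, Pde10a, Gng7 and Rgs9).

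Signalling genes of blood-cell lineages were called in 1 direction. Of 36 measured genes of immune tyrosine kinase signalling 17 rose, 0 fell and 19 were not called, with a median difference of 0.29 beside -0.01 over all genes, and none of the 17 is on a marker list. Nckap1l, a subunit of the actin-regulating WAVE complex, had 6.39, 6.35 and 6.43 in wild type and 7.17, 7.79 and 7.70 in 5xFAD (1.16 ± 0.14, adjusted p = 0.00137). All 3 of its 5xFAD arrays lay above the highest wild-type array, with replicate 1 the lowest of them. Pik3cg, a catalytic subunit of phosphoinositide 3-kinase, rose by 1.08 ± 0.14, its counterpart phosphatase Inpp5d by 0.96 ± 0.16 and the GTPase gene Rac2 by 0.53 ± 0.07. The microglial marker mean rose beside this list. The count of 17 became 11, 11 and 11 without wild-type replicate 1, 2 or 3, and 10 and 11 without 5xFAD replicate 2 or 3.

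Of 33 transcription factors of myeloid and lymphoid cells 9 rose and 1 fell, with a median of 0.03. The factors of macrophage identity were among those that rose: Irf8 by 0.80 ± 0.10, Spi1, which encodes PU.1, by 0.68 ± 0.12 and Fli1 by 0.59 ± 0.10. Spi1 had 5.96, 5.96 and 5.84 in wild type and 6.31, 6.79 and 6.72 in 5xFAD. The repressor Bcl6 fell by 0.49 ± 0.10 (adjusted p = 0.0177), a call lost without wild-type replicate 1 or 3 or 5xFAD replicate 2 or 3 (adjusted p from 0.00356 to 0.0791 over the alternatives). The 9 increases became 5, 4, 4, 5 and 3 without wild-type replicate 1, 2 or 3 or 5xFAD replicate 2 or 3.

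Pattern-recognition receptors were chosen for description after their values had been seen. Of 10 Toll-like receptor genes 6 rose, beside 3.66% of all genes. Tlr13, a sensor of bacterial ribosomal RNA, had 5.33, 5.15 and 5.08 in wild type and 6.27, 7.09 and 6.81 in 5xFAD (1.54 ± 0.17, adjusted p = 0.000851). Tlr7, a sensor of single-stranded RNA, rose by 1.26 ± 0.20, and Tlr2, a sensor of lipoproteins, by 0.94 ± 0.15. For all 3 genes the groups did not overlap and 5xFAD replicate 2 was the highest array.

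Of 44 cytokine and chemokine ligands and receptors 16 rose and 1 fell (median 0.16). Il13ra1, a subunit of the receptors for interleukins 4 and 13, had 5.90, 5.74 and 5.94 in wild type and 6.65, 6.60 and 6.84 in 5xFAD (0.84 ± 0.09, adjusted p = 0.000731). The member that fell, Il16, encodes a precursor whose neuronal form is a scaffold protein, with 6.33, 6.43 and 6.22 against 5.12, 5.46 and 5.27 (-1.05 ± 0.12, adjusted p = 0.000851). All 3 of its 5xFAD arrays lay below the lowest wild-type array.

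Ligands of the transforming growth factor beta family went different ways. Tgfb1, the isoform known from microglia and other immune cells, had 6.38, 6.29 and 6.36 in wild type and 6.86, 7.23 and 7.21 in 5xFAD (0.76 ± 0.10, adjusted p = 0.00209). Tgfb2, an isoform known from neurons and astrocytes, had 7.35, 7.40 and 7.24 against 6.64, 6.49 and 6.49 (-0.79 ± 0.08, adjusted p = 0.000552). Tgfb3 was not called, with 6.76, 6.79 and 6.72 against 6.74, 6.79 and 6.74. Both receptor genes rose, Tgfbr1 by 0.84 ± 0.13 and Tgfbr2 by 0.92 ± 0.12, with 5xFAD replicate 1 the lowest of its group in each. Tgfb1, Tgfb3 and Tgfbr1 were added to the description of Tgfb2 and Tgfbr2 after their values had been seen. In the wider list of 45 growth factors and receptors 7 rose and 8 fell. Fgf10, a fibroblast growth factor gene, fell by 0.70 ± 0.07, and the 7 increases became 4 without wild-type replicate 3.

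Enzymes of lipid mediator synthesis formed another group with more increases than decreases. Of 24 genes of the prostaglandin, leukotriene and phospholipase list 7 rose and 1 fell, with a median of 0.20, and none of the 7 is on a marker list. Hpgds, the haematopoietic prostaglandin D synthase, had 6.20, 6.03 and 5.99 in wild type and 6.95, 7.53 and 7.47 in 5xFAD (1.24 ± 0.14, adjusted p = 0.000767). Hpgd, which breaks prostaglandins down, had 6.71, 6.72 and 6.70 against 7.66, 7.88 and 8.02 (1.14 ± 0.11, adjusted p = 0.000461). A gene of synthesis and a gene of breakdown thus rose by similar amounts. Tbxas1, the thromboxane synthase, rose by 1.00 ± 0.16, and Pla2g4a, the phospholipase that releases arachidonic acid, by 0.36 ± 0.06. The inducible cyclooxygenase gene Ptgs2 was the 1 member that fell, by 0.53 ± 0.13, a call kept without wild-type replicate 1 and lost without any other single array (adjusted p from 0.015 to 0.129 over the alternatives).

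Of 34 antioxidant and glutathione genes 3 rose and 1 fell (median 0.01), the decrease being lost without wild-type replicate 1 or 3 or 5xFAD replicate 2 or 3. Nfe2l2, which encodes the oxidative stress factor NRF2, had 7.72, 7.53 and 7.67 in wild type and 8.13, 8.37 and 8.36 in 5xFAD (0.65 ± 0.08, adjusted p = 0.00157). Gpx1, a glutathione peroxidase gene, rose by 0.40 ± 0.06. On the list of iron and copper handling, which also holds subunits of the phagocyte oxidase, 6 of 29 rose and 1 fell. The 2 membrane subunits of that oxidase rose, Cyba by 0.60 ± 0.07 and Cybb by 1.07 ± 0.17. Heph, a copper-dependent ferroxidase that assists iron export, fell from 5.97, 5.82 and 5.69 to 5.20, 5.42 and 5.40 (-0.49 ± 0.08, adjusted p = 0.00788). The 6 increases on this list became 3, 3, 2 and 3 without wild-type replicate 1, 2 or 3 or 5xFAD replicate 3.

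Lysosomal genes were often called higher, whereas calls on the proton pump and autophagy lists were near the share of all genes. Those 2 lists had 10.5% and 9.68% called and the proteasome list 2.70%, beside 8.58% of all genes. Of 42 measured lysosomal enzymes and membrane proteins 20 rose and 1 fell, with a median of 0.27, and 7 of the 20 are on a marker list. Ctsd, the aspartic protease cathepsin D, had 10.42, 10.32 and 10.45 in wild type and 11.50, 11.94 and 11.75 in 5xFAD (1.34 ± 0.12, adjusted p = 0.000258). Ctsz, an exopeptidase, had 8.25, 8.10 and 8.08 against 9.30, 9.96 and 9.83 (1.56 ± 0.16, adjusted p = 0.0007). The glucuronidase gene Gusb and the progranulin gene Grn, both added after their values had been seen, rose by 1.11 ± 0.14 and 0.75 ± 0.13. The 1 member that fell was Gaa, the acid glucosidase of glycogen breakdown (-0.64 ± 0.15), a call lost without wild-type replicate 1 or 3 or 5xFAD replicate 2 or 3 (adjusted p from 0.0101 to 0.127 over the alternatives).

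Of 19 subunits of the vacuolar proton pump, which acidifies the lysosome, 1 rose and 1 fell, with a median of -0.01, and the increase was lost without any single array except 5xFAD replicate 1. The subunit that fell, Atp6v0e2, had 10.35, 10.31 and 10.42 in wild type and 10.03, 9.87 and 9.96 in 5xFAD (-0.40 ± 0.06, adjusted p = 0.00254). Of 31 autophagy genes 0 rose and 3 fell (9.68%, beside 4.92% of all genes), with a median of -0.03. Among the 3 was the initiating kinase gene Ulk1 (-0.28 ± 0.05). Without wild-type replicate 1 the 3 became 1. Of 37 proteasome subunits 1 rose, the interferon-inducible Psmb8 (0.75 ± 0.15, adjusted p = 0.015), a call lost without wild-type replicate 1 or 2 or 5xFAD replicate 2 or 3 (adjusted p from 0.00336 to 0.07 over the alternatives).

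**Figure D4:**
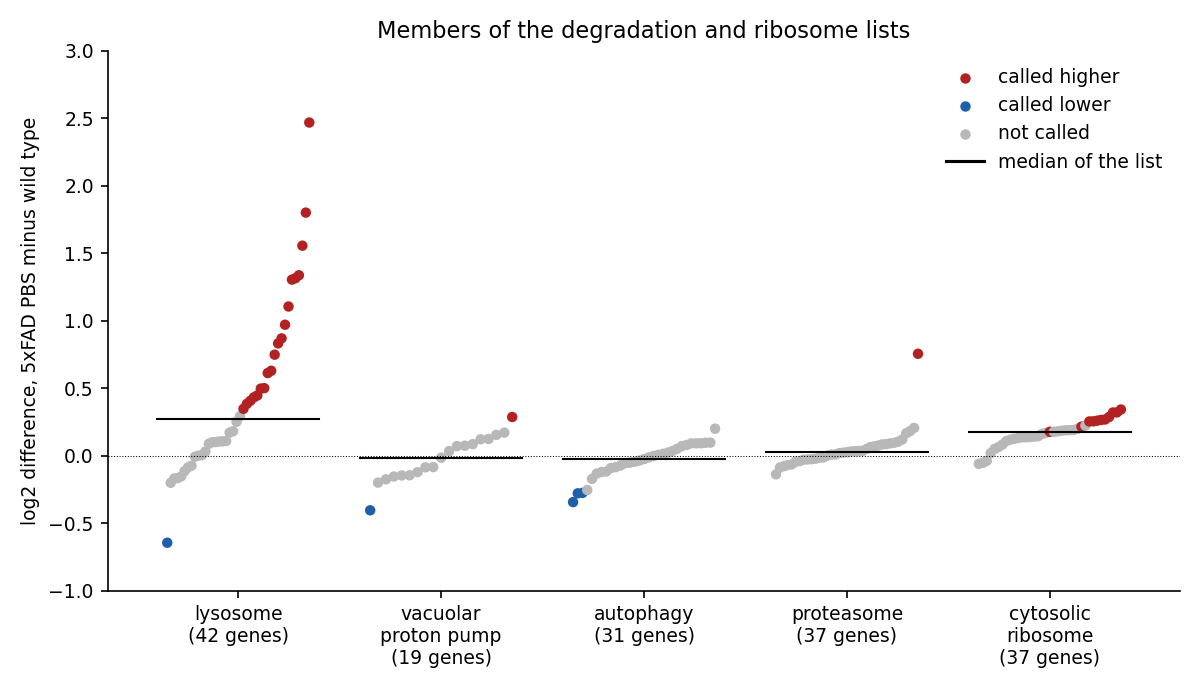
Log2 differences, 5xFAD PBS minus wild type (y axis), of the measured members of 5 lists, 1 point a gene in rising order within its list, coloured by the call, with the list's median as a line. The lysosomal points reach from -0.64 to 2.47 with a median of 0.27, while proton pump, autophagy and proteasome points stay around 0 except for single genes, and the ribosomal points lie between -0.06 and 0.34 with a median of 0.18, 26 of the 37 not called.

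Calls among cytosolic ribosomal proteins were small increases. Of 37 measured genes 11 rose, 0 fell and 26 were not called. Differences ran from -0.06 to 0.34 with a median of 0.18, and 34 of the 37 were positive. Rps18 had 9.97, 10.01 and 9.99 in wild type and 10.33, 10.29 and 10.38 in 5xFAD (0.34 ± 0.05, adjusted p = 0.00221). Rpl10 and Rpl5 rose by 0.32 ± 0.05 and 0.27 ± 0.05, with no overlap of the arrays. The 11 became 6, 3, 3, 6, 6 and 4 when wild-type replicates 1, 2 and 3 and 5xFAD replicates 1, 2 and 3 were left out in turn, and 17 when quantile normalization was repeated. Probe sets of these genes may also read their many near-identical copies.

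Some genes of energy metabolism were called with small decreases. Of 32 genes of glycolysis and the tricarboxylic acid cycle 7 fell and 1 rose (median -0.05; the increase was lost without any single array except 5xFAD replicate 1), and of 48 respiratory chain subunits 3 fell and 0 rose (median -0.01). The shares that fell were 21.9% and 6.25%, beside 4.92% of all genes, the second being near that background. Ogdh, a subunit of the oxoglutarate dehydrogenase of the cycle, had 10.49, 10.42 and 10.46 in wild type and 10.17, 10.21 and 10.22 in 5xFAD (-0.25 ± 0.05, adjusted p = 0.0145). Cs, the citrate synthase, fell by 0.25 ± 0.05 (adjusted p = 0.0164). Both calls were lost without wild-type replicate 1 or 3, and that of Cs also without 5xFAD replicate 2 or with repeated quantile normalization (adjusted p from 0.00521 to 0.0611 for Ogdh and from 0.00803 to 0.07 for Cs over the alternatives). These calls were fragile: the 7 became 0, 3, 0, 2, 4 and 2 when wild-type replicates 1, 2 and 3 and 5xFAD replicates 1, 2 and 3 were left out in turn, and 2 when quantile normalization was repeated. The 3 respiratory chain calls became 0 without wild-type replicate 1 and 1 without any other single array or with repeated quantile normalization.

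Of 31 measured genes of lipid uptake, storage and efflux 3 rose (9.68%, beside 3.66% of all genes) and 1 fell (3.23%, beside 4.92%). Plin2, a coat protein of lipid droplets, had 6.42, 6.37 and 6.35 in wild type and 6.82, 7.14 and 7.06 in 5xFAD (0.63 ± 0.08, adjusted p = 0.00183). Pnpla2, the lipase that hydrolyses triglyceride in those droplets, had 7.20, 7.06 and 7.12 against 6.71, 6.75 and 6.65 (-0.42 ± 0.06, adjusted p = 0.00286). Abca1, a cholesterol exporter, rose by 0.52 ± 0.09. Of 23 genes of cholesterol synthesis 1 rose and 1 fell, the increase being lost without any single array except 5xFAD replicate 1.

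Receptors for glutamate, GABA and glycine, both ion channels and G protein-coupled receptors, were called in 1 direction. Of 21 glutamate receptor genes 7 fell and 0 rose (median -0.09), and of 17 GABA and glycine receptor genes 5 fell and 0 rose (median -0.17). Gria1, an AMPA receptor subunit, had 10.69, 10.80 and 10.81 in wild type and 10.47, 10.24 and 10.33 in 5xFAD (-0.42 ± 0.07, adjusted p = 0.00447). Grm2, a presynaptic metabotropic receptor, had 8.40, 8.41 and 8.42 against 8.04, 8.04 and 8.01 (-0.38 ± 0.06, adjusted p = 0.00348). The decrease in Grm2 was smaller but more even over the arrays than that of Gria1. Gabra5, a GABA-A subunit abundant in hippocampus, fell by 0.62 ± 0.10, Gabrb1 by 0.26 ± 0.05 and the GABA-B subunit gene Gabbr2 by 0.52 ± 0.10. The hippocampal and thalamic marker means fell beside these lists. The 7 glutamate receptor calls became 4 without wild-type replicate 2 or 3 or 5xFAD replicate 2 or 3.

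Receptors for monoamines and acetylcholine were called in both directions, 5 higher and 8 lower of 35. Of the 5 increases 2, Drd1 and Drd2, are striatal markers, and 1 of the 8 decreases is on a marker list. The nicotinic subunit gene Chrna4 had 9.26, 8.99 and 9.06 in wild type and 8.09, 8.21 and 7.98 in 5xFAD (-1.01 ± 0.11, adjusted p = 0.000808). Among serotonin receptor genes Htr2a had 8.20, 8.37 and 8.37 against 9.0, 9.22 and 9.01 (0.77 ± 0.09, adjusted p = 0.000927). Htr1b rose by 0.58 ± 0.09 while Htr1a fell by 0.59 ± 0.07, both chosen after their values had been seen. The 8 decreases became 5 without wild-type replicate 1 or 5xFAD replicate 2 or 3.

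Ion channel genes were likewise mixed. Of 48 potassium channel genes 5 rose and 6 fell, and of 34 sodium and calcium channel genes 3 rose and 5 fell. Scn4b, an auxiliary sodium channel subunit, had 7.60, 7.49 and 7.46 in wild type and 8.43, 8.53 and 8.65 in 5xFAD (1.02 ± 0.08, adjusted p = 0.000165). Kcnj2, an inward rectifier, rose by 0.84 ± 0.11, and Kcnc4, another potassium channel gene, fell by 0.60 ± 0.08. The 5 potassium channel increases became 2, 3, 3 and 3 without wild-type replicate 1 or 3 or 5xFAD replicate 2 or 3. The 3 sodium and calcium channel increases became 1 without wild-type replicate 1 or 3 or 5xFAD replicate 3, and the 5 decreases became 3, 2, 3 and 3 without wild-type replicate 1 or 2 or 5xFAD replicate 2 or 3.

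Of 37 genes of synaptic vesicles and release 11 fell and 2 rose (median -0.10), and of 35 postsynaptic genes 5 fell and 3 rose (median -0.04). On the vesicle list 2 of the 11 decreases and 1 of the 2 increases are on a list of cell type or region markers. Syn1, which tethers vesicles in the reserve pool, had 10.93, 10.90 and 10.99 in wild type and 10.63, 10.65 and 10.58 in 5xFAD (-0.31 ± 0.05, adjusted p = 0.00366). Vamp1, a vesicle SNARE protein, fell by 0.71 ± 0.12. Lrrtm1, a synapse-organising membrane protein, had 8.63, 8.64 and 8.73 against 8.02, 7.74 and 7.82 (-0.81 ± 0.07, adjusted p = 0.000363). The 11 vesicle decreases became 5, 7, 6, 6, 7 and 6 when wild-type replicates 1, 2 and 3 and 5xFAD replicates 1, 2 and 3 were left out in turn, and 7 with repeated quantile normalization. The 2 vesicle increases became 0 without any single array except 5xFAD replicate 2, without which they were 3, and the 5 postsynaptic decreases became 3 without wild-type replicate 1 or 3 or 5xFAD replicate 1 or 3.

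Guidance and adhesion molecules were called mainly lower. Of 44 axon guidance genes 12 fell and 2 rose, with a median of -0.16, and 33 of 44 had a negative difference. Slit1, a secreted repellent for growing axons, had 8.29, 8.31 and 8.30 in wild type and 7.39, 7.05 and 7.31 in 5xFAD (-1.05 ± 0.10, adjusted p = 0.000388). The netrin receptor gene Unc5c had 8.44, 8.50 and 8.43 against 8.02, 7.89 and 7.99 (-0.49 ± 0.05, adjusted p = 0.000862). Nrp1, a semaphorin co-receptor, fell by 0.58 ± 0.07 and the semaphorin gene Sema5a, chosen after its values had been seen, by 0.70 ± 0.12. The 12 stayed at 10 to 12 when any 1 array was left out, while the 2 increases became 1 without wild-type replicate 1 or 2 or 5xFAD replicate 3.

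Of 27 cadherins and protocadherins 5 fell and 0 rose, with Pcdh20 lower by 0.94 ± 0.16 (8.17, 8.27 and 8.17 against 7.59, 6.96 and 7.25) and Cdh20 by 0.69 ± 0.11 (8.05, 7.93 and 7.94 against 7.10, 7.39 and 7.34). Of 44 matrix and protease genes 7 fell and 1 rose. Hapln4, a link protein of perineuronal nets, the matrix coats around some neurons, fell from 8.76, 8.64 and 8.57 to 7.80, 7.98 and 7.91 (-0.76 ± 0.07, adjusted p = 0.000288). In each of the 3 genes all 5xFAD arrays lay below all wild-type arrays. The 5 cadherin calls became 3 without wild-type replicate 3 or 5xFAD replicate 2 or 3. The 7 matrix calls became 3, 3, 2, 3 and 3 without wild-type replicate 1, 2 or 3 or 5xFAD replicate 2 or 3, and the 1 increase was kept only without wild-type replicate 1 or 5xFAD replicate 2.

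Genes on the lists of glucocorticoid response and of neuronal activity were called in 1 direction. Among 19 genes that respond to glucocorticoids there were 6 decreases and 0 increases, and the median of -0.38 was the lowest of the 40 process lists. Zbtb16, a transcription factor gene that glucocorticoids induce, had 9.64, 9.69 and 9.59 in wild type and 8.42, 8.87 and 8.59 in 5xFAD (-1.02 ± 0.10, adjusted p = 0.000635). Of 31 activity-dependent genes 5 fell and 0 rose (median -0.26), with Jun, a subunit of the transcription factor AP-1, at 8.47, 8.46 and 8.56 against 7.86, 7.42 and 7.65 (-0.85 ± 0.10, adjusted p = 0.000946). The 6 became 3 without wild-type replicate 1 or 2 or 5xFAD replicate 1 or 3, and 9 without 5xFAD replicate 2. The 5 became 3 without wild-type replicate 1, 2 or 3 or 5xFAD replicate 2.

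App itself was not called: its values were 11.87, 11.89 and 11.92 in wild type and 11.69, 11.78 and 11.80 in 5xFAD (-0.14 ± 0.05, adjusted p = 0.139). Thy1, the source of the transgene promoter, was not called either (0.02 ± 0.07, adjusted p = 0.926). The probe sets are named for the mouse genes, and whether they read the human transcripts was not tested. Of 38 genes of amyloid processing, tau and Alzheimer risk 6 rose and 3 fell. The sialic acid receptor gene Cd33 had 6.85, 6.91 and 6.97 in wild type and 7.46, 7.92 and 7.71 in 5xFAD (0.78 ± 0.10, adjusted p = 0.00197). Abi3, an actin regulator of microglia, rose by 0.69 ± 0.09, and Mme, which encodes neprilysin, an enzyme that degrades amyloid beta, rose from 6.78, 6.60 and 6.72 to 7.24, 7.22 and 7.30 (0.56 ± 0.09, adjusted p = 0.00528). The 6 increases stayed at 5 or 6 when any 1 array was left out.

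Whole gene families by symbol, read after the values had been seen, had shares of calls that can be read beside 3.66% higher and 4.92% lower over all genes. Of 1027 olfactory receptor genes 3 were called and of 167 vomeronasal receptor genes 0. The largest difference of the 3 was that of Olfr111, which had 3.98, 3.63 and 3.96 in wild type and 5.29, 5.85 and 5.69 in 5xFAD (1.75 ± 0.14, adjusted p = 0.000183), and it is among the 15 largest increases. Olfr110 (0.25 ± 0.07) lost its call with repeated quantile normalization and without wild-type replicate 1, 2 or 3 or 5xFAD replicate 2 or 3, and Olfr1392 (0.45 ± 0.11) in a fit of the 6 arrays alone and without wild-type replicate 1 or 3 or 5xFAD replicate 1 or 2. Of 94 genes named for CD antigens 18 rose and 0 fell (19.1% called, beside 8.58% of all genes). Of 379 solute carrier genes 38 fell and 17 rose (14.5% called), with the amino acid transporter Slc6a17 of synaptic vesicles lower by 0.53 ± 0.06 (10.37, 10.42 and 10.44 against 9.93, 9.87 and 9.85) and the sodium-calcium exchanger Slc24a3 by 0.66 ± 0.07. Of 14 genes of the S100a series 4 rose (28.6%), among them S100a6 by 0.67 ± 0.10 and S100a1 by 0.42 ± 0.05.

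Some called genes were neighbours in the genome. By the order of genes in RefSeq, 7.02% of the genes called higher were followed by another gene called higher, beside 3.66% of all genes placed, and 6.12% of those called lower by another called lower, beside 4.93%. Of 5 runs of 3 consecutive called genes, 1 joins Ngef (0.45 ± 0.07), a guanine exchange factor of neurons, the sialidase gene Neu2 (0.42 ± 0.06) and the phosphatase gene Inpp5d (0.96 ± 0.16). Neu2 had 4.98, 5.09 and 5.21 in wild type and 5.53, 5.54 and 5.46 in 5xFAD, with no overlap. Another run holds the guanylate-binding protein genes Gbp5, Gbp7 (0.49 ± 0.06) and Gbp3 (0.79 ± 0.13), which interferons induce, where the call of Gbp5 (0.26 ± 0.06) was lost with repeated quantile normalization and without 5 of the 6 single arrays, wild-type replicate 3 being the exception. The genes of a run can share probes or transcripts, which was not tested.

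Promoters were searched because regulators of macrophages and interferon-induced genes were both among the increases. RefSeq promoters (GRCm38.p6), from 250 bases before to 50 bases after the start site, were matched for 15614 genes, 564 called higher and 784 lower. The PU.1-type motif GAGGAAGT, on either strand, was found in 5.67% of promoters of genes called higher, 1.66% of those called lower and 2.73% of all. The interferon-stimulated response element (GAAA and GAAA with any 2 bases between them, on either strand) was found in 6.38%, 2.04% and 3.32%, and in 10 of 18 promoters of the interferon-stimulated marker list. The cAMP response element TGACGTCA was found in 0.887% of genes called higher (only 5 of 564), 2.04% of those called lower (16 of 784) and 2.49% of all. Of 13 motifs searched these 3 are shown, chosen after the shares were seen; the ETS-IRF motif (GGAA and GAAA with any 2 bases between them), which can overlap matches of the first 2, was in 3.55%, 1.79% and 2.59%. A match describes the letters in the window and is no evidence of binding.

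Promoters of 3 called genes are printed to show how the motifs lie, with each match in capitals. Ctss encodes the lysosomal protease cathepsin S (difference 1.80), at chr3:95526536-95526835 on the plus strand, and holds an interferon-type match followed within the same stretch by a PU.1-type match on the opposite strand. Hpgds, described above, at chr6:65144681-65144980 on the minus strand, holds 1 PU.1-type match 45 bases before the start site. Cybb, the oxidase subunit, at chrX:9469275-9469574 on the minus strand, holds 3 interferon-type matches.
Ctss: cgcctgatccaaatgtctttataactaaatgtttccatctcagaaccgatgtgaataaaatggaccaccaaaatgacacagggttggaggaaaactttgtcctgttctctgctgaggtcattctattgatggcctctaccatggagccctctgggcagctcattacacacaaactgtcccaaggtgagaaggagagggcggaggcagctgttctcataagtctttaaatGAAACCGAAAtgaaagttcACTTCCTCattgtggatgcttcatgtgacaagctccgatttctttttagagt
Hpgds: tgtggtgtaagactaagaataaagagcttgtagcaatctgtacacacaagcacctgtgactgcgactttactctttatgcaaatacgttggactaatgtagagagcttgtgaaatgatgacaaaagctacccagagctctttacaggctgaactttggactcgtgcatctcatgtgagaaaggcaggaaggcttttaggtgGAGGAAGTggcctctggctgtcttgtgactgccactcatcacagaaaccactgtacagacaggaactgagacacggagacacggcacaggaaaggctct
Cybb: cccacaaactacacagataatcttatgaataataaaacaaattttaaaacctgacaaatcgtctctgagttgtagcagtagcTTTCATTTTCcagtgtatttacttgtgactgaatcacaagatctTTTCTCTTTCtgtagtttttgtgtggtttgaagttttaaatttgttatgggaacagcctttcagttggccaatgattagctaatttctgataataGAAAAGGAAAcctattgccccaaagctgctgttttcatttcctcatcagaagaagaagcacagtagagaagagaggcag

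Of 302 microRNA genes on the array 8 were called higher and 1 lower (2.98%, beside 8.58% of all genes). What these probe sets read, the precursor or its host transcript, was not checked, so they give no level of a mature microRNA. Mirlet7d had 5.12, 5.26 and 5.51 in wild type and 5.76, 5.83 and 5.79 in 5xFAD (0.49 ± 0.10, adjusted p = 0.0166), and Mirlet7f-1 had 4.91, 5.23 and 5.13 against 5.84, 5.56 and 5.77 (0.63 ± 0.13, adjusted p = 0.019). The sequences of their 5′ arms are shown because the 2 share a seed (bases 2 to 8, in capitals), which differs from that of Mir181b-1 (0.51 ± 0.10, adjusted p = 0.0152).
let-7d-5p: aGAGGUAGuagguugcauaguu
let-7f-5p: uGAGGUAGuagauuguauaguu
miR-181b-5p: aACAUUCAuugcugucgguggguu
Each of the 3 calls was lost without wild-type replicate 1 or 5xFAD replicate 3. Mirlet7d was also lost without wild-type replicate 2 or 5xFAD replicate 2, Mirlet7f-1 without wild-type replicate 3 or 5xFAD replicate 1, and Mir181b-1 without wild-type replicate 3. Over the alternatives the adjusted p ran from 0.00848 to 0.0627, 0.00565 to 0.0841 and 0.00265 to 0.0619 in that order.

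Some large differences were not called. Of 12 genes at least 2-fold apart without a call, 11 were higher and 1 lower in 5xFAD, and they were described after their values had been seen. Ctse, the aspartic protease cathepsin E, had 5.11, 5.18 and 5.19 in wild type and 5.59, 9.71 and 9.27 in 5xFAD, a difference of 3.03 ± 0.91 (adjusted p = 0.0782). The groups did not overlap, but 5xFAD replicate 1 stood near wild type and the other two far above. In the amylin group Ctse was at 6.20, 8.0 and 7.49. Without 5xFAD replicate 1 the difference was 4.33 and the adjusted p 0.000745, in a range of 0.000745 to 0.235 over the alternatives.

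Another 9 genes, Eomes, Doc2g, S100a5, Scgn, Cdhr1, Frmd7, Trh, Abi3bp and Nmb, were highest in 5xFAD replicate 1 and lowest of their group in 5xFAD replicate 2. Eomes, a transcription factor gene of olfactory bulb projection neurons, had 4.81, 4.64 and 4.63 in wild type and 7.32, 5.64 and 6.28 in 5xFAD, and S100a5, a gene of olfactory neurons, had 4.96, 5.11 and 5.10 against 8.30, 5.48 and 6.21. The olfactory bulb marker mean had the same order over the 5xFAD arrays, 8.07, 6.76 and 7.27. Eomes, Doc2g, Scgn, Cdhr1 and Trh are on that marker list and help set its mean, so the shared order is no separate evidence. The 1 decrease was that of Pmch, the melanin-concentrating hormone gene of the hypothalamus, with 7.33, 7.76 and 6.16 in wild type and 4.69, 4.50 and 4.35 in 5xFAD (-2.57 ± 1.11, adjusted p = 0.222). The remaining gene was C1qb, a complement gene of the microglial marker list, with 8.59, 8.47 and 8.71 in wild type and 9.40, 9.69 and 10.34 in 5xFAD (1.22 ± 0.34, adjusted p = 0.0583). The groups did not overlap, 5xFAD replicate 3 was the highest array, and the adjusted p ran from 0.0134 to 0.185 over the alternatives.

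**Figure D5:**
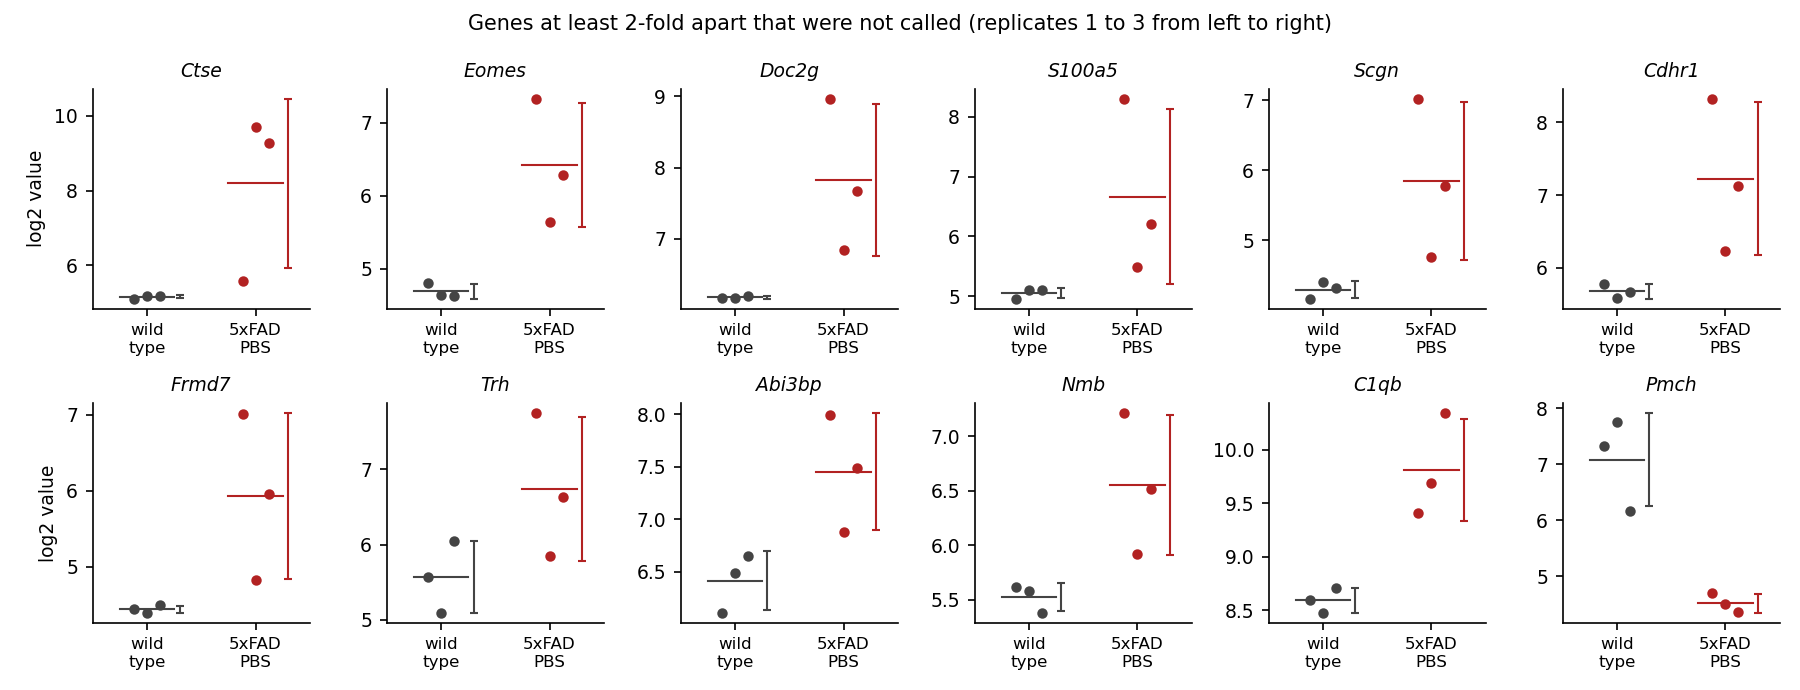
Log2 values (y axis, a scale for each gene) of the 12 genes at least 2-fold apart but not called, in the 3 wild-type (grey) and 3 5xFAD PBS arrays (red), with each group's mean (line) and SD (bar). In Ctse the first 5xFAD array lies near wild type; in 9 genes that array is the highest.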

How the data were processed

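Total RNA of 9 mouse brain samples (3 groups of 3 biological replicates) was labelled and hybridised to 1 Affymetrix gene array each, per the labels' protocols. The deposited log2 intensities of 35556 probe sets were made by the authors with RMA in oligo, per the submitters' processing notes. RMA subtracts background, equalises the arrays' quantiles, which can hide a shift shared by most genes, and summarises probes. Versions and genome build are not given in the sources used here. Array medians lay between 5.71 and 5.79. Of the probe sets 21789 name 1 symbol, 1621 several and 12146 none; RefSeq (GRCm38.p6) served for names, gene order and promoters.

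The deposited values were fitted with limma 3.58.1 in R 4.3.3: all 9 arrays, a mean per group, 6 residual and 3.53 prior degrees of freedom, contrast 5xFAD PBS minus wild type, adjusted over 19938 genes, tested on simulated data first. The median SE was 0.07, and 3 arrays a group limit precision. P-values set a difference against the spread within groups, taken over all 3 groups and drawn towards a common prior. Whether that spread is between animals or between pools is not known. Python 3.11.15 was used for counts.

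The comparison, the 60 gene lists (1680 genes, 1551 measured) and the rule for named genes were chosen with earlier results of these data known. The rule took the 15 largest increases and 15 largest decreases among called genes without overlap of arrays, on no marker list and not predicted or small RNA genes; the 4 smallest p of each process list, and of a marker list where a result turns on it; App, Apoe, Thy1, Cst7, Trem2, Gfap, Fkbp5, Cabp7 and Rgs9; and runs of 3 or more neighbouring called genes. The text names part of these. Toll-like receptors, gene families, microRNA genes, genes with printed promoters, uncalled genes and those so marked were chosen after their values were seen. Alternatives were repeated quantile normalization, median centring, leaving out the lowest 25% or 50% of genes, a trended robust prior, only the 6 arrays, array weights, a block for the replicate number, probe-set means, no small or predicted genes, each array left out, a 1.5-fold minimum and an adjusted p under 0.01.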

Additional observations from a re-analysis of the deposited data

Results flagged for a closer look

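Probe sets outside the gene table also differed between 5xFAD and wild type. Of 12146 probe sets that name no gene 18 were called, 14 higher and 4 lower, and of 1621 that name several genes 10 were called, all higher (adjusted over both kinds together). These are 0.148% and 0.617%, beside 8.58% of genes, but genes were adjusted separately, so the shares do not rest on 1 cutoff. The largest unadjusted limma p among the called probe sets was 9.88e-05, whereas among genes Mir677 was called at 0.0040. The called probe sets were flagged as signal in data that the comparison of genes does not use. Of the 10, 3 name the Bcl2a1 genes, whose products oppose cell death in blood cells, with differences of 1.43 ± 0.17, 1.31 ± 0.17 and 1.24 ± 0.17. The first of them had 4.46, 4.57 and 4.58 in wild type and 5.59, 6.27 and 6.03 in 5xFAD. Another 2 name Ly6c1 and Ly6c2, surface proteins of endothelial cells and monocytes, with 0.52 ± 0.06 and 0.47 ± 0.06. Their copies cannot be told apart.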

How the results depend on the processing

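The 1710 calls became 863 to 1306 when 1 array was left out, the 729 increases 392 to 625 and the 981 decreases 471 to 681. A 1.5-fold minimum left 413 calls (258 higher, 155 lower) and an adjusted p under 0.01 left 655 (311 and 344). Under the other 10 alternatives the totals lay between 1494 and 2301. Replicate numbers were shared by the groups, and the deviations of same-numbered arrays correlated at 0.094, 0.183 and 0.064. Every array correlated best with its own number, and the other pairs lay between -0.143 and 0.0384. Whether same-numbered samples share more than a number was not tested. With the replicate number as a block 1638 genes were called (728 higher, 910 lower); of the called genes named in the report, Ptgs2, Gaa and Olfr1392 lost their call under it.

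Of the 112 called genes named in the report 99 kept their call in all of the 16 alternative fits that tested them. None reversed its sign. The 1.5-fold minimum and the adjusted p under 0.01 were not counted among these fits. Among uncalled genes Tgfb3 turned to -0.00248 with array weights, -0.0183 without wild-type replicate 3 and -0.0149 without 5xFAD replicate 2, and Thy1 to -0.0376 without 5xFAD replicate 2 (ranges over single arrays left out of -0.0183 to 0.0178 and -0.0376 to 0.0601); the cause was not tested. Ctse was also called with array weights, with the replicate block, when the dimmest 50% of genes were dropped, and without 5xFAD replicate 1. C1qb was called under the first 3 of these, with the lowest 25% left out, with repeated quantile normalization and in the fit of the 6 arrays. Low signal limits what can be said of the 4985 genes of the lowest level, with means up to 4.71.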
